A study of Mus musculus with 12 samples.

Results

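To describe what fibroblasts had lost and gained once reprogramming was complete, the mRNA-Seq library of established induced pluripotent stem cells (iPSCs) was set against D0, the library of the mouse embryonic fibroblasts (MEFs) from which reprogramming starts. Genes with at least 1 FPKM (fragments scaled to the length of the transcript and to the mapped fragments of the library) in D0 or in iPSCs were taken, which gave 12687 of the 24098 genes in the deposited table. A difference below is iPSCs minus D0 on the log2(FPKM + 1) scale, on which 2 stands for 4-fold. This scale understates the change of low genes. Of the 12687 genes, 877 (6.91%) were at least 4-fold higher in iPSCs and 1304 (10.3%) were at least 4-fold lower, and the median difference was 0.01. These counts move with the scale: a pseudocount of 0.1 in place of 1 gave 1597 higher and 1931 lower genes, and scaling both libraries to one total of FPKM gave 1102 and 1154, so the excess of lower genes was nearly lost. A gene below 1 FPKM in D0 was kept only where it reached 1 FPKM in iPSCs, so for lists that are silent in fibroblasts the direction of the kept genes was fixed by this filter. In the same way, a gene below 1 FPKM in iPSCs was kept only where it reached 1 FPKM in D0, so it could only be lower. At 2-fold, 2650 genes (20.9%) were higher and 3064 (24.2%) were lower. The genes at least 4-fold higher held 0.540% of the total FPKM in D0, 8.004% in iPSCs and 6.63% in mESCs, and those at least 4-fold lower held 25.0%, 2.41% and 2.38%. Near the end of the time course, the lower genes still held 13.8% in the D16S- cells of the unsuccessful route, which lacked the surface marker SSEA-1, and 4.01% in the SSEA-1-positive D16S+ cells. Complete switches were about as frequent in either direction: 244 genes were below 1 FPKM in D0 and at 10 FPKM or more in iPSCs, and 239 genes were the reverse.

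D0 held uninfected MEFs from mid-gestation embryos with an IRES-EGFP cassette behind Oct4 (Pou5f1), grown in DMEM with serum. The iPSCs were labelled as fully reprogrammed cells from MEFs infected with pMXs retroviruses for Sox2, Klf4, Oct4 and c-Myc (OSKM), and per the labels were grown in FF medium, which contains LIF, basic FGF, CHIR99021 and ascorbic acid. The D3 line of mouse embryonic stem cells (mESCs), also grown in FF medium per the labels and not infected, is given beside them as the reference pluripotent cell. Each condition had 1 library, so no difference has a replicate check, no test was made, and the cell state, the integrated viruses and the medium cannot be told apart. The study's methods name other media for both pluripotent lines, with LIF and either serum or serum replacement, so their medium is not certain. The labels did not say whether the iPSCs were 1 clone or a pool. In bulk RNA, fewer cells of a type and less RNA per cell cannot be told apart either.

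The total FPKM over the table was 648264 in D0, 546797 in iPSCs and 593255 in mESCs. From the steps between low values of single-transcript genes, the depth in fragments (in units of 1e6) was estimated at 20.7 for D0, 22.8 for iPSCs and 21.3 for mESCs. At that depth, 3 fragments in a transcript of 2 kb are worth 0.0725 FPKM in D0 and 0.0658 FPKM in iPSCs, so values near these rest on very few fragments. A value of 0 can also be a failed estimate. The upper bound of the deposited interval lay a median of 99.6% above the value in D0 and 100.2% above it in iPSCs, over genes at 10 FPKM or more. The intervals of D0 and iPSCs lay apart for 66 genes that were higher in iPSCs (0.520% of the genes) and for 74 that were lower (0.583%). Many genes named below are not among them, such as Nanog, Cdh1, Dppa5a, Tdh, Col3a1, Mmp3 and Crabp1, whose intervals overlapped.

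Fibroblasts are mesenchymal cells that secrete and remodel collagen-rich extracellular matrix and pull on it through actin stress fibres. Pluripotent stem cells grow as compact epithelial colonies that are joined by E-cadherin, and their self-renewal rests on a network of transcription factors built around Oct4, Sox2 and Nanog. The passage from one to the other therefore includes a mesenchymal-to-epithelial transition, the closing of fibroblast genes and the opening of genes that are silent in somatic cells.

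The labels were first checked against markers. In D0, 13 of 14 fibroblast markers were at 1 FPKM or more and 3 of 14 pluripotency markers were (Pou5f1, Sox2 and Dppa5a, each between 1.21 and 1.99 FPKM). In iPSCs, the 14 pluripotency markers lay between 25.9 and 2441 FPKM. The summed FPKM of the fibroblast markers was 13681 in D0 and 193.6 in iPSCs, and that of the pluripotency markers was 5.65 in D0 and 5548 in iPSCs. The latter sum includes Pou5f1 and Sox2 (1516 and 109 FPKM in iPSCs), whose reads may come in part from the viruses. Markers of other cells were also present. Of 12 skeletal muscle markers, 9 were at 1 FPKM or more in D0 and 5 were in iPSCs, and among the former were the myogenic regulators Myog (24.2 FPKM) and Myod1 (4.96 FPKM). Their summed FPKM was 528 in D0 and 1021 in iPSCs, where Mylpf alone stood at 915 FPKM (182 FPKM in D0). Of 13 leukocyte markers, 8 reached 1 FPKM in D0, led by Cd14 (9.79 FPKM) and Lyz2 (9.47 FPKM), while the pan-leukocyte gene Ptprc stood at 0.0273 FPKM there and at 0 in iPSCs. The summed FPKM of the leukocyte list was 38.8 in D0 and 88.8 in iPSCs, where Laptm5 and Cd68 (40.5 and 40.02 FPKM) led it. The part of such cells in the differences below was not tested.

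**Figure D1:**
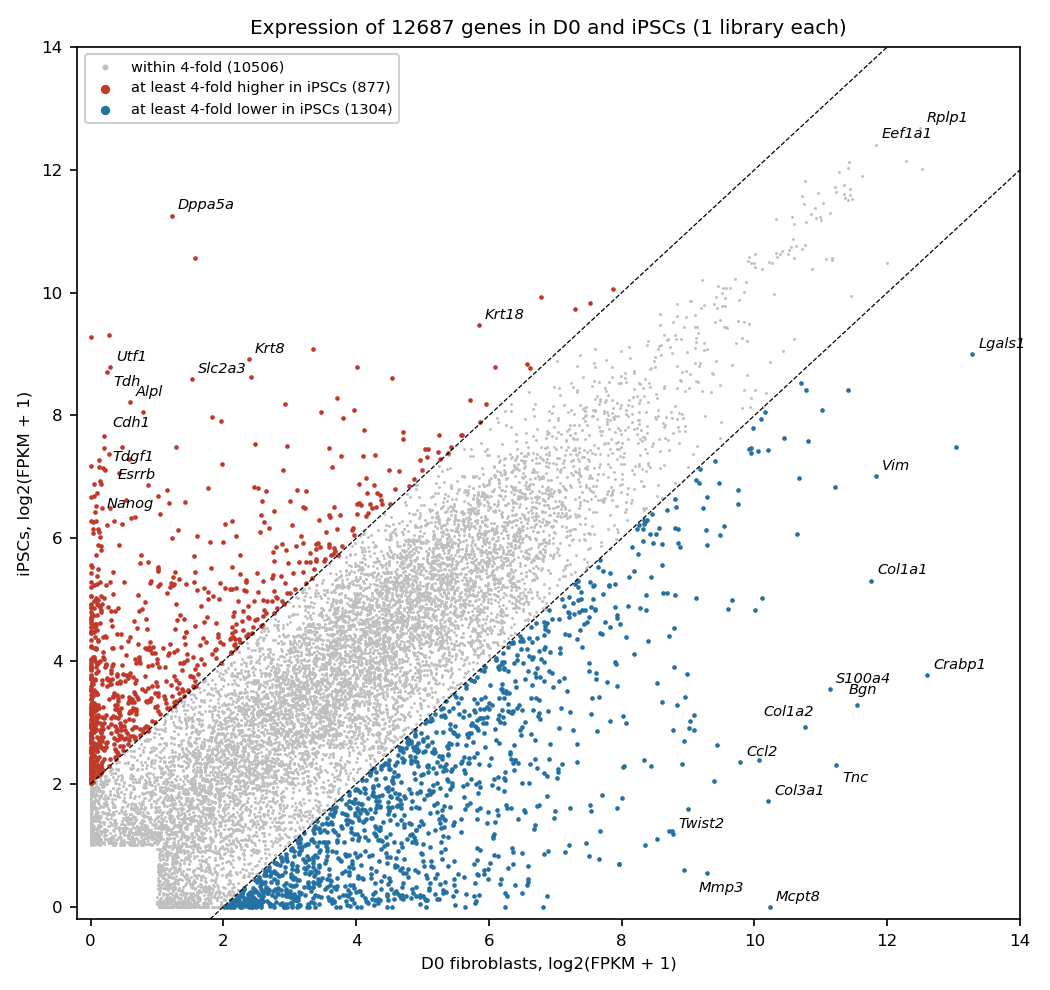
Each point is 1 of 12687 genes, with log2(FPKM + 1) in D0 on the x axis and in iPSCs on the y axis, and the dashed lines mark a 4-fold difference. The 877 genes above the upper line include Dppa5a, Utf1 and Cdh1, and the 1304 genes below the lower line include Tnc, Crabp1 and Col3a1, while the most abundant translation genes (Rplp1, Eef1a1) lie near the diagonal.

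Genes of the pluripotency network stood far above D0. Of the 31 pluripotency transcription factors kept (32 in the table), 25 were at least 4-fold higher in iPSCs and 0 were 4-fold lower, and the median difference was 4.11, against 0.01 over all kept genes. In D0, 14 of the 31 reached 1 FPKM, and the others were kept through their iPSC value, which fixes their direction. Nanog, the homeobox factor that holds the network in its self-renewing state (mm9 chromosome 6, 122657507 to 122664651, plus strand), stood at 0.0889 in D0, 143 in iPSCs and 137 FPKM in mESCs, and between 0.119 and 192 FPKM in the 9 other libraries, with a median of 8.99 FPKM. Its iPSC level was thus close to that of mESCs and far from that of D0, though its deposited intervals overlapped (0 to 0.344 FPKM in D0, 0 to 288 FPKM in iPSCs). Esrrb, an orphan nuclear receptor of the naive network (chromosome 12, 87702067 to 87862578, plus strand), stood at 0.215 in D0, 165 in iPSCs and 195 FPKM in mESCs. Utf1, a chromatin-bound factor of undifferentiated cells, stood at 0.228, 439 and 430.5 FPKM in the same order. Sall4, a zinc-finger partner of Oct4, stood at 0.144, 140.0 and 54.2 FPKM, and its deposited intervals in D0 and iPSCs lay apart. Zfp42 (Rex1), a common marker of naive cells, stood at 0.0834, 58.6 and 173 FPKM.

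Not every factor of this list was silent in fibroblasts. Klf5, Etv5 and Tbx3 were listed in D0 at 11.6, 19.97 and 14.4 FPKM and in iPSCs at 90.3, 92.8 and 57.9 FPKM. Mybl2, a cell-cycle factor, and Zfp57, which keeps the methylation of imprinted regions, were at 10.03 and 14.7 FPKM in D0 and at 265 and 270.4 FPKM in iPSCs. Stat3, the signal transducer of LIF, differed the other way, with 87.8 FPKM in D0 and 29.7 FPKM in iPSCs. For the 4 OSKM genes, the table does not separate reads of the viruses, if these were still active, from reads of the endogenous genes. Pou5f1 was listed at 1.99 in D0, 1516 in iPSCs and 1292 FPKM in mESCs, Sox2 at 1.21, 109 and 162 FPKM, Klf4 at 11.7, 56.5 and 62.03 FPKM, and Myc at 27.3, 43.97 and 4.87 FPKM. Of these, Myc alone was at least 4-fold higher in iPSCs than in the uninfected mESCs, by 2.94 on the log2 scale.

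The list of other genes specific to pluripotent cells, or shared with oocytes and early embryos, had a larger median difference. Of 30 kept, 26 were at least 4-fold higher, with a median of 5.20. Only 5 of the 30 reached 1 FPKM in D0, and the others were kept through their iPSC value, which fixes their direction. Dppa5a, which encodes a KH-domain RNA-binding protein (chromosome 9, 78214859 to 78215984, minus strand), had the largest positive difference in the table (10.03), from 1.34 FPKM in D0 to 2441 in iPSCs, against 2698 FPKM in mESCs. Tdh, the mitochondrial threonine dehydrogenase on which mouse pluripotent cells depend, stood at 0.186 FPKM in D0 and 419 FPKM in iPSCs. Lin28a, which blocks the maturation of let-7 microRNAs, was at 0.0275 and 75.7 FPKM, and L1td1, an RNA-binding protein derived from a transposon, at 0.0984 and 121 FPKM. Dppa4 and Dppa3 (Stella) were listed at 0 in D0 and at 101 and 17.9 FPKM in iPSCs. Trap1a, an X-linked tumour-rejection antigen, stood at 0.0901 and 153 FPKM, and Rhox6, an X-linked homeobox gene of the germ line and placenta, was listed at 0 and 143 FPKM, against 15.2 FPKM in mESCs. Rbmxl2, a testis RNA-binding protein, was at 0.0348 and 117 FPKM. Spp1, which encodes the secreted osteopontin, was a member of the list that went the other way, with 985 FPKM in D0 and 176 FPKM in iPSCs.

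The promoter windows of Nanog and Zfp42 are shown because they carry letters that POU factors such as Oct4 are known to bind, in Nanog next to letters of the SOX kind. Both are read 5′ to 3′ on the strand of the gene from the RefSeq annotation of GRCm38.p6, from 250 bases before the transcript start to 20 bases after it. Nanog has 2 annotated starts, and the window of the one with the lower coordinate is printed. Capitals mark the octamer-type letters TTTGCAT and the SOX-type letters CATTGT on either strand.
Nanog (chr6:122707239-122707508, plus strand): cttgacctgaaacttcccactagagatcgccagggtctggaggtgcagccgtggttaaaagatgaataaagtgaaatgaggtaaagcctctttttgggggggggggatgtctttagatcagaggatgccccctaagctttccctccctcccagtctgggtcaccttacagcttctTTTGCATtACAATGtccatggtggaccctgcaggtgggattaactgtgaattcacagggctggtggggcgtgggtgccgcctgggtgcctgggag
Zfp42 (chr8:43306990-43307259, minus strand): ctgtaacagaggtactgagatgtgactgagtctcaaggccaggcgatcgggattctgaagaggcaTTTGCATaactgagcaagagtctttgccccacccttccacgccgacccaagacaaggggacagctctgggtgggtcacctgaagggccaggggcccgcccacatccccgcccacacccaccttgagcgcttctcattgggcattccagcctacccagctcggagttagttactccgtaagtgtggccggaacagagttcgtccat

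In the Nanog window TTTGCAT began 75 bases before the start and was followed after 1 base by ACAATG, the reverse complement of CATTGT. In the Zfp42 window TTTGCAT began 185 bases before the start. Windows of 300 bases (250 before and 50 after the start) were searched for 7568 kept genes with a single RefSeq start, on both strands. TTTGCAT was found in 3 of 14 windows of pluripotency transcription factors (21.4%), in 4.68% of the 491 genes at least 4-fold higher, in 2.49% of the 723 at least 4-fold lower, in 3.29% of the 7568 and in 4.63% of all 32851 RefSeq promoters. CATTGT was in none of those 14 windows, in 8.76% of the higher genes and in 4.98% of the lower ones, against 6.70% of the 7568 and 12.6% of all promoters. These letters are a description of the window and not evidence of binding.

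The second large gain was epithelial. Of the 33 adhesion genes kept, 26 were at least 4-fold higher in iPSCs and 0 were 4-fold lower, with a median of 3.82. In D0, 10 of the 33 reached 1 FPKM, and the others were kept through their iPSC value, which fixes their direction. Cdh1, which encodes E-cadherin (chromosome 8, 109127251 to 109194146, plus strand), stood at 0.150 in D0, 203 in iPSCs and 136 FPKM in mESCs, and between 2.27 and 129.9 FPKM in the 9 other libraries, with a median of 17.8 FPKM. Tight junction proteins were among the members: Cldn4 (chromosome 5, 135420996 to 135422804, minus strand) stood at 0.387 FPKM in D0 and 178 FPKM in iPSCs, and Cldn6 and Cldn7 were listed at 0 in D0 and at 76.8 and 35.99 FPKM in iPSCs. Polarity genes were higher too, with Llgl2 at 2.95 and 146 FPKM and Crb3 at 0 and 24.1 FPKM. The desmosome genes Dsp and Pkp3 stood at 0.929 and 0.375 FPKM in D0 and at 17.7 and 17.7 FPKM in iPSCs. Epcam, a surface glycoprotein of epithelial and pluripotent cells, was at 0.528 and 79.3 FPKM. Spint1 and Spint2, inhibitors of membrane serine proteases, and their target St14 (matriptase) stood at 1.34, 2.89 and 0.686 FPKM in D0 and at 63.3, 241 and 52.1 FPKM in iPSCs. Jup, plakoglobin, was already abundant in fibroblasts and differed little, with 49.3 and 79.1 FPKM.

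Regulators of epithelial genes were higher too. Of 14 kept, 11 were at least 4-fold higher (median 2.66), beside 6.91% of all kept genes. Only 2 of the 14 reached 1 FPKM in D0, and the others were kept through their iPSC value, which fixes their direction. Grhl2, a Grainyhead factor that drives Cdh1 and claudin genes, was at 0.0286 and 11.9 FPKM, the Ets factor Elf3 at 0.273 and 76.4 FPKM, and Esrp1, the regulator of epithelial splicing, at 0.0120 and 10.2 FPKM. Ovol2, a repressor of mesenchymal genes, was at 0.0434 and 4.91 FPKM. The opposing repressors of Cdh1 were lower: Snai1 stood at 57.5 FPKM in D0 and 19.19 FPKM in iPSCs, Snai2 at 10.5 and 0.225 FPKM, Zeb1 at 13.6 and 1.54 FPKM, and Zeb2 at 4.77 and 0.471 FPKM.

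Snail and Zeb repressors are known to bind the E-box letters CACCTG, so the windows of 3 adhesion genes are shown with those letters, on either strand, in capitals.
Cldn4 (chr5:134946915-134947184, minus strand): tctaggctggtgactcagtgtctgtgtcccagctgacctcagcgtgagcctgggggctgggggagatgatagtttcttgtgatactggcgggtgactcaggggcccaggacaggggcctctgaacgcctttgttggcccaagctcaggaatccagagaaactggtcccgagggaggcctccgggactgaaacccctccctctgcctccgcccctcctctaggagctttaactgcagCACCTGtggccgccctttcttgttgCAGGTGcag
Epcam (chr17:87635729-87635998, plus strand): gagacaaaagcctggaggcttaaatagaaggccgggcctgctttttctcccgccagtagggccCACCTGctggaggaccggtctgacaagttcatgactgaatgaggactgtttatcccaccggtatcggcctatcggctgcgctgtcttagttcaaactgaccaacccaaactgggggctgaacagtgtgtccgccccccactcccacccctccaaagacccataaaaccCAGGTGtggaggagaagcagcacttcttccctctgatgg
Spint2 (chr7:29281958-29282227, minus strand): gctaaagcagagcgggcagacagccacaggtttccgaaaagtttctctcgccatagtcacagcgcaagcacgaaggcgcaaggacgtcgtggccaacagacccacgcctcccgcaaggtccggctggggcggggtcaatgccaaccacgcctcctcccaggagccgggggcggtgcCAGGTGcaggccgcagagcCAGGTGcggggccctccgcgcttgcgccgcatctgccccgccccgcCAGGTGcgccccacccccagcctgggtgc

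The Cldn4 window held the letters 14 bases before the start and again at base 12 after it, the Epcam window 187 and 19 bases before the start, and the Spint2 window 74, 55 and 9 bases before it. Among 15 adhesion genes with a single RefSeq start, 10 windows of 300 bases held CACCTG at least once (66.7%). The share was 29.7% of the genes at least 4-fold higher, 12.4% of those at least 4-fold lower, 17.4% of the 7568 and 20.2% of all promoters. Of the windows without it, those of Cgn, Spint1 and Lad1 belonged to genes at least 4-fold higher in iPSCs, and those of Cldn5 and Jup to genes within 2-fold of D0. Muc1 held the letters and differed by 0.49. Whether these letters were bound was not tested.

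Keratin genes were the third epithelial group, and 4 of 10 keratin and intermediate filament genes were at least 4-fold higher in iPSCs than in mESCs. Krt8, which pairs with Krt18 in simple epithelia, was listed at 4.22 in D0, 483 in iPSCs and 26.7 FPKM in mESCs. Krt18 was at 56.5, 711 and 36.5 FPKM, and Krt7 at 0.352, 133 and 5.22 FPKM. Krt19 stood closer in both pluripotent libraries, at 76.6 and 43.6 FPKM. Vim (vimentin), the filament of mesenchymal cells, stood at 3641 in D0, 128 in iPSCs and 245 FPKM in mESCs, so it was lower but remained among the well expressed genes.

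**Figure D2:**
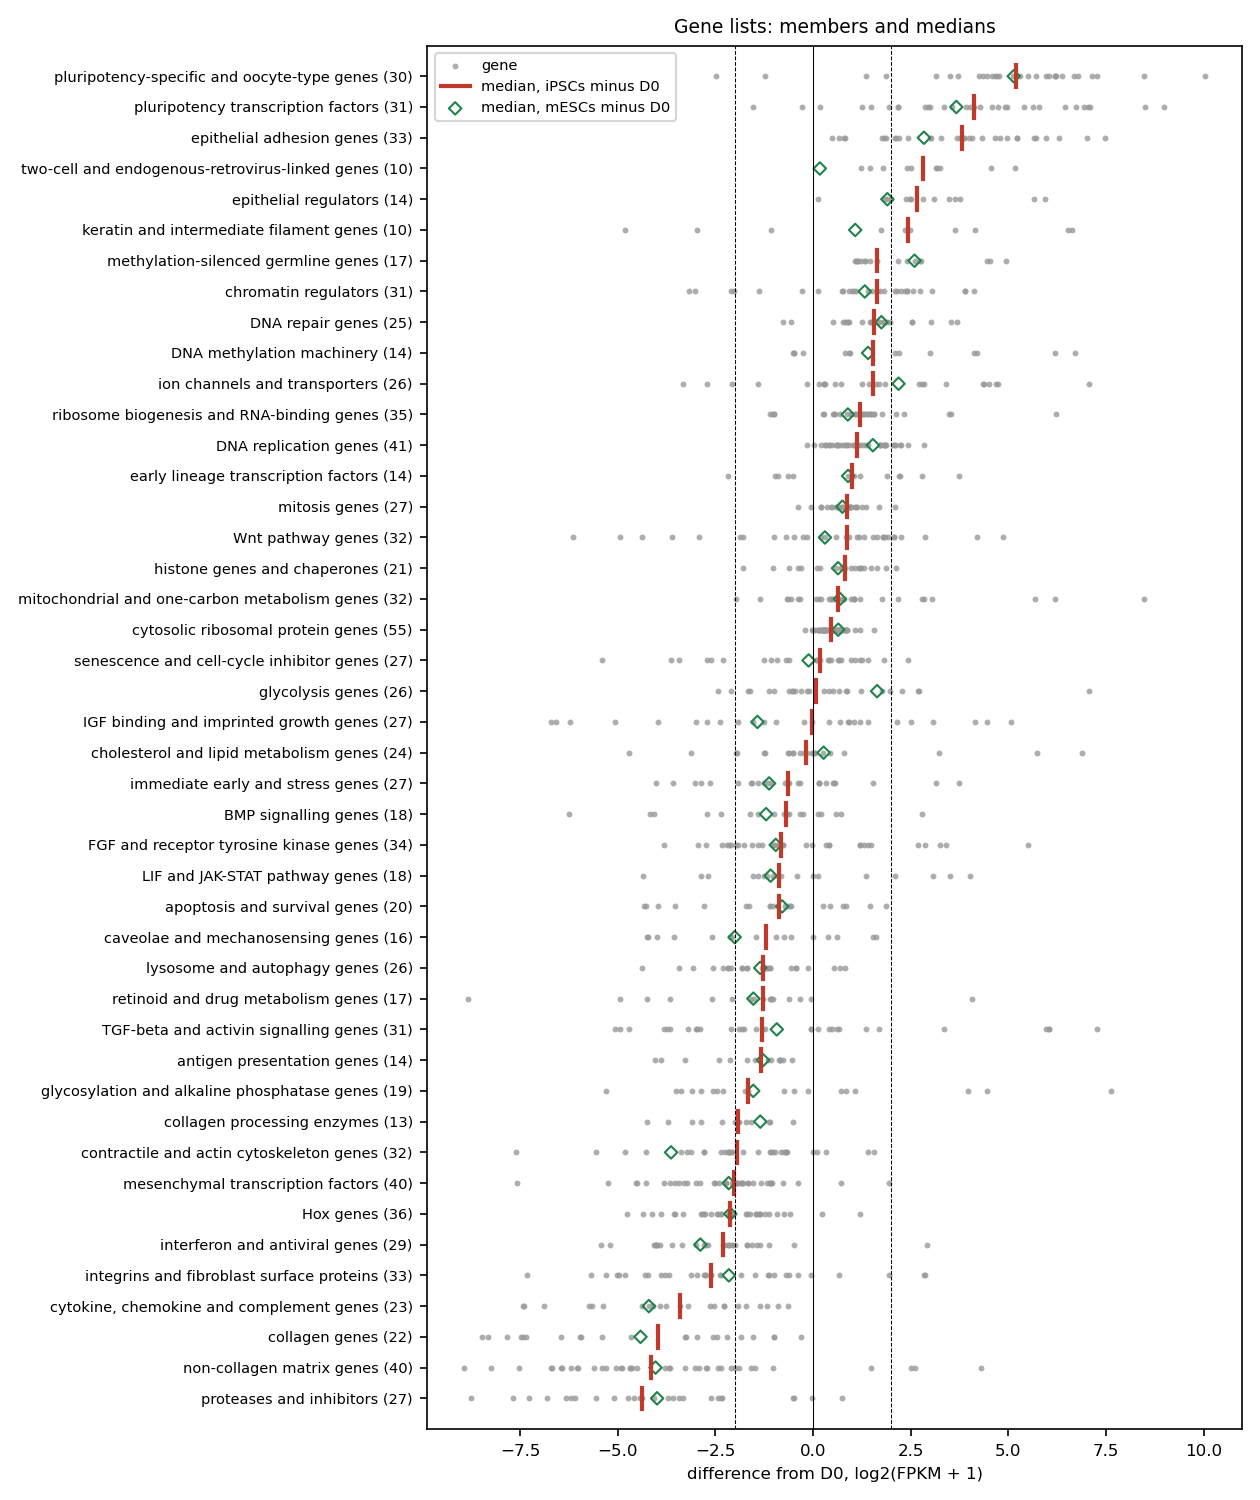
Rows are gene lists with the number of kept genes in brackets, and the x axis is the difference from D0 in log2(FPKM + 1), with dashed lines at 4-fold. Grey points are the genes in iPSCs, red bars the medians in iPSCs and green diamonds the medians in mESCs. The lists run from the proteases and inhibitors (median -4.38) to the pluripotency-specific and oocyte-type genes (median 5.20), and the diamond leaves the bar most for the 2-cell-stage genes, the contractile genes and the glycolysis genes.

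Chromatin genes were remodelled in composition. Of the 14 genes of DNA methylation, 7 were at least 4-fold higher and 0 were 4-fold lower. Dnmt3b, the de novo methyltransferase of early embryos, was listed at 0.501 in D0, 156 in iPSCs and 48.5 FPKM in mESCs, and its cofactor Dnmt3l at 4.36, 393 and 168 FPKM. Dnmt3a differed less, with 6.78 and 12.8 FPKM. The opposing dioxygenases Tet1 and Tet2, which oxidise methylcytosine, were at 0.157 and 1.65 FPKM in D0 and at 20.4 and 19.97 FPKM in iPSCs, while Tet3 stood at 4.38 and 3.50 FPKM. Uhrf1, which brings the maintenance enzyme Dnmt1 to replicated DNA, was at 46.6 and 205 FPKM.

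Among 31 chromatin regulators, 12 reached 4-fold above D0 and 4 reached 4-fold below it. The former held members of both Polycomb complexes: Jarid2 stood at 5.26 and 108 FPKM, Suz12 at 2.18 and 15.4 FPKM, Eed at 8.19 and 42.6 FPKM, Mtf2 at 1.32 and 11.2 FPKM, Phc1 at 11.1 and 177 FPKM, and Kdm2b at 10.01 and 56.9 FPKM. Ezh2, the catalytic subunit, lay below the 4-fold line with 6.48 and 22.3 FPKM. The 4 lower genes were Smarca2, Smarcd3, Smarcc2 and Hdac7, the first 3 of them subunits of SWI/SNF remodellers. Smarca2 (Brm) stood at 7.88 and 1.06 FPKM, Smarcd3 at 13.4 and 0.773 FPKM, and Smarcc2 (BAF170) at 58.2 and 13.4 FPKM. Their paralogues Smarca4 (Brg1), Smarcd1 and Smarcc1 (BAF155) stood at 103, 21.5 and 29.7 FPKM in D0 and at 84.2, 72.6 and 57.1 FPKM in iPSCs. In mESCs Smarcd3 was at 6.37 FPKM, above its iPSC value.

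Germline genes that somatic cells keep silent by promoter methylation were listed in iPSCs at levels up to 30.4 FPKM, that of Tuba3a, which is uncertain since its near-identical copy Tuba3b can share its reads. Of 25 in the table, 17 were kept and 8 of these were at least 4-fold higher, and all but Zcwpw1 were kept through their iPSC value, which fixes that direction. Dazl, a germ cell RNA-binding protein, was at 0.0166 and 5.17 FPKM, Mael at 0.0329 and 4.51 FPKM, and the Piwi protein Piwil2 at 0.125 and 6.66 FPKM. Stag3, a meiotic cohesin, stood at 2.51 in iPSCs against 20.9 FPKM in mESCs. The D0 values of Dazl and Mael lay under the level of 3 fragments in 2 kb.

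The replication and repair machinery was higher by smaller factors across many genes. Of 41 replication genes, 7 were at least 4-fold higher and 0 were 4-fold lower, and the median was 1.13, or 1.53 in mESCs. The 7 were Orc1, Lig1, Cdt1, Mcm10, Uhrf1, Rfc5 and Mcm2. Mcm2, a subunit of the replicative helicase, stood at 57.2 and 238 FPKM, and the licensing factor Cdt1 at 32.6 and 159 FPKM. The nucleotide-supply genes Tk1 and Rrm1 were at nearly the same level in both libraries, at 122 and 34.96 FPKM in D0 and at 123 and 31.4 FPKM in iPSCs. The mitosis genes differed less, with a median of 0.87 and 1 gene (Espl1, separase) at least 4-fold higher. Of 25 repair genes, 5 were at least 4-fold higher. These included the mismatch repair gene Msh6 (11.4 and 142 FPKM) and the uracil glycosylase Ung (5.82 and 86.5 FPKM).

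The window of Cdc6, which loads the helicase at origins (4.54 and 17.1 FPKM), is shown because it holds the E2F-type letters TTTCCCGC of S-phase genes, in capitals on the reverse strand 138 bases before the start.
Cdc6 (chr11:98907901-98908170, plus strand): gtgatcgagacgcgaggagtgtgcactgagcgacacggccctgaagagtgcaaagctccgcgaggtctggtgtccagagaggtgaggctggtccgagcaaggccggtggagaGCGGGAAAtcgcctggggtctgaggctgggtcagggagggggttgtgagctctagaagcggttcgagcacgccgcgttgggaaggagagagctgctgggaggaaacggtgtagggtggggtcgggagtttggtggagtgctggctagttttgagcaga

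TTTCCCGC was found in 5 of 27 replication windows (18.5%), against 2.31% of the 7568 windows of kept genes, 1.07% of all promoters, 3.05% of the genes at least 4-fold higher and 0.968% of those at least 4-fold lower. CCAAT was found in 66.7% of the replication windows and in 39.0% of the 7568.

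The cell-cycle regulators had a median of 0.19, but 6 of 27 were at least 4-fold lower. Cdkn2a, the locus of p16 and p19Arf, was listed at 289 in D0, 43.4 in iPSCs and 34.5 FPKM in mESCs. Its neighbour Cdkn2b was at 106 and 7.61 FPKM, Cdkn2c at 19.8 and 0.921 FPKM, and the p53 target Cdkn1a (p21) at 626 and 101 FPKM. Both Ccnd1 (283 and 56.8 FPKM) and Ccnd2 (101 and 1.41 FPKM) were at least 4-fold lower, whereas Ccnd3 stood at 194 and 267 FPKM and the G1/S cyclin Ccne1 at 44.7 and 121 FPKM. Trp53 stood at 170.3 and 394 FPKM.

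The extracellular matrix and the enzymes that cut it held the most negative medians of the gene lists other than the fibroblast markers. Of 22 collagen genes kept, 17 were at least 4-fold lower and 0 were 4-fold higher, with a median of -3.97, beside 10.3% lower over all kept genes. Each of the 22 reached 1 FPKM in D0 and 14 did so in iPSCs, so for the others the filter fixed the direction. The collagen list made up 1.49% of the total FPKM in D0 and 0.0677% in iPSCs. Col3a1 (chromosome 1, 45368383 to 45406551, plus strand) stood at 1175 in D0, 2.29 in iPSCs and 1.55 FPKM in mESCs, and between 2.97 and 689.9 FPKM in the 9 other libraries, with a median of 164 FPKM. The 2 chains of type I collagen, Col1a1 and Col1a2, stood at 3453 and 1738 FPKM in D0 and at 38.7 and 6.65 FPKM in iPSCs. The chains of type VI collagen, Col6a1, Col6a2 and Col6a3, were at 417, 367 and 488 FPKM in D0 and at 1.36, 1.15 and 0.523 FPKM in iPSCs. Basement membrane collagens were kept at higher levels. Col4a1 stood at 371 and 102 FPKM, Col4a2 at 408 and 87.6 FPKM, and Col18a1 at 228 and 113 FPKM.

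The other matrix genes had a median of -4.15, and the 40 kept all reached 1 FPKM in D0 while 23 did so in iPSCs. For those below it in iPSCs, the filter fixed the direction. Of 40 kept, 31 were at least 4-fold lower and 3 were at least 4-fold higher, and the latter, Lama5, Lama1 and Nid2, are components of basement membranes. Other basement membrane genes were among the lower ones, as for Nid1, the paralogue of Nid2, which stood at 468 in D0 and 57.2 FPKM in iPSCs. Tnc, the glycoprotein tenascin-C (chromosome 4, 63620819 to 63681760, minus strand), was listed at 2399 in D0, 3.95 in iPSCs and 2.26 FPKM in mESCs, with a difference of -8.92. The small proteoglycans Bgn (biglycan) and Dcn (decorin) stood at 2983 and 117 FPKM in D0 and at 8.78 and 0.128 FPKM in iPSCs, and the antiangiogenic Thbs2 at 434 and 1.36 FPKM. The elastic fibre genes Fbn1, Mfap2 and Fbln2 stood at 175, 180.5 and 541 FPKM in D0 and at 1.06, 0.771 and 6.37 FPKM in iPSCs. Fn1 (fibronectin) and Sparc were lower but abundant, at 1124 and 2067 FPKM in D0 and 281 and 270.3 FPKM in iPSCs. Laminin chains were exchanged: Lama4, Lama2 and Lamb1 were at 27.8, 4.21 and 328 FPKM in D0 and at 0.163, 0.0175 and 32.7 FPKM in iPSCs, whereas Lama5, Lama1 and Lamc1 were at 4.75, 1.38 and 60.1 FPKM in D0 and at 112, 12.5 and 171 FPKM in iPSCs.

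Enzymes that cut the matrix were lower with it. Of 27 proteases and inhibitors, 23 were at least 4-fold lower and 0 were 4-fold higher, with a median of -4.38. Each of the 27 reached 1 FPKM in D0 and 21 did so in iPSCs, so for the others the filter fixed the direction. The stromelysin Mmp3 (chromosome 9, 7445822 to 7455972, plus strand) stood at 624 in D0, 0.458 in iPSCs and 0.0810 FPKM in mESCs. Mmp2, a gelatinase, was at 688 and 5.18 FPKM, the collagenolytic cathepsin Ctsk at 247 and 0.616 FPKM, and the plasminogen activators Plau and Plat at 519 and 242 FPKM in D0 and 6.56 and 2.06 FPKM in iPSCs. Serpinf1 (pigment epithelium-derived factor) was at 1071 and 4.22 FPKM and the collagen chaperone Serpinh1 at 1637 and 125 FPKM. Plaur, the urokinase receptor, did not follow: its level was 102 in D0 and 101 in iPSCs, against 12.2 FPKM in mESCs.

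The window of Mmp3 is shown with the AP-1 letters TGANTCA in capitals, the sequence that Fos and Jun dimers are known to bind, which it held 46 bases before the start.
Mmp3 (chr9:7445572-7445841, plus strand): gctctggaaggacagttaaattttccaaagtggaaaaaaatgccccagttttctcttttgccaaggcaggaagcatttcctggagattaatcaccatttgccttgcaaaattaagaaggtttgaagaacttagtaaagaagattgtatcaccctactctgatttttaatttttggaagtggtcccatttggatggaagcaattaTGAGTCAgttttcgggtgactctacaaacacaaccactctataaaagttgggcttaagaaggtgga

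TGANTCA was found in 8.02% of the windows of genes at least 4-fold lower and in 7.33% of those at least 4-fold higher, against 4.61% of the 7568 and 7.81% of all promoters. Several AP-1 genes themselves were lower in iPSCs. Fosl1 stood at 81.3 FPKM in D0 and 4.05 FPKM in iPSCs, Jun at 108 and 12.4 FPKM, Junb at 184 and 28.6 FPKM, and Fos at 16.2 and 4.86 FPKM. Jund and Atf3 did not follow, at 50.2 and 2.11 FPKM in D0 and at 72.7 and 7.99 FPKM in iPSCs.

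Transcription factors of mesenchymal identity were lower as well. Of 40 kept (48 in the table), 20 were at least 4-fold lower and 0 were 4-fold higher, with a median of -2.03. All 40 reached 1 FPKM in D0 and 16 did so in iPSCs, so for the others the filter fixed the direction. Twist2, a basic helix-loop-helix factor of dermal mesenchyme (chromosome 1, 93698038 to 93744605, plus strand), was the highest in D0. It was listed at 435 in D0, 1.27 in iPSCs and 0.269 FPKM in mESCs. Prrx1, a homeobox factor of limb mesenchyme, stood at 44.4 and 0.197 FPKM, Tbx15 at 32.3 and 0.429 FPKM, Osr1 at 21.01 and 0.135 FPKM, and Runx2, the osteoblast factor, at 10.97 and 0.118 FPKM. Msx2 and Gli2 went the other way: Msx2 stood at 1.64 and 9.23 FPKM and Gli2, a Hedgehog effector, at 8.16 and 13.9 FPKM.

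The positional code of the fibroblasts was lower in each Hox cluster. Of 39 Hox genes in the table, 31 were at 1 FPKM or more in D0 and 3 in iPSCs. The summed FPKM was 52.2 in D0 and 3.46 in iPSCs for Hoxa, 70.1 and 3.71 for Hoxb, 80.8 and 3.21 for Hoxc, and 14.5 and 0.668 for Hoxd. The highest Hox genes of D0 were Hoxc6, Hoxc10 and Hoxb9 at 30.3, 22.7 and 21.7 FPKM, and they stood at 0.146, 0.167 and 1.27 FPKM in iPSCs.

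Surface proteins by which fibroblasts sense matrix and growth factors were lower. Of 33 kept, 20 were at least 4-fold lower and 2 were at least 4-fold higher, Mcam and Dpp4. Of the 33, 32 reached 1 FPKM in D0 and 25 did so in iPSCs. For those below it in either library, the filter fixed the direction. Thy1, the antigen used to sort reprogramming cells in this series, was listed at 669 in D0, 3.15 in iPSCs and 8.998 FPKM in mESCs, and the platelet-derived growth factor receptors Pdgfra and Pdgfrb at 37.99 and 38.9 FPKM in D0 and 1.07 and 1.71 FPKM in iPSCs. The mesenchymal cadherins Cdh11 and Cdh2 stood at 81.5 and 16.5 FPKM in D0 and at 0.617 and 1.21 FPKM in iPSCs, opposite to Cdh1. Cd44, the hyaluronan receptor, was at 85.96 and 1.70 FPKM, and Itgb1, the common integrin chain, at 209.6 and 33.2 FPKM. Tm4sf1, a tetraspanin-like protein, was at 247 and 0.623 FPKM.

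**Figure D3:**
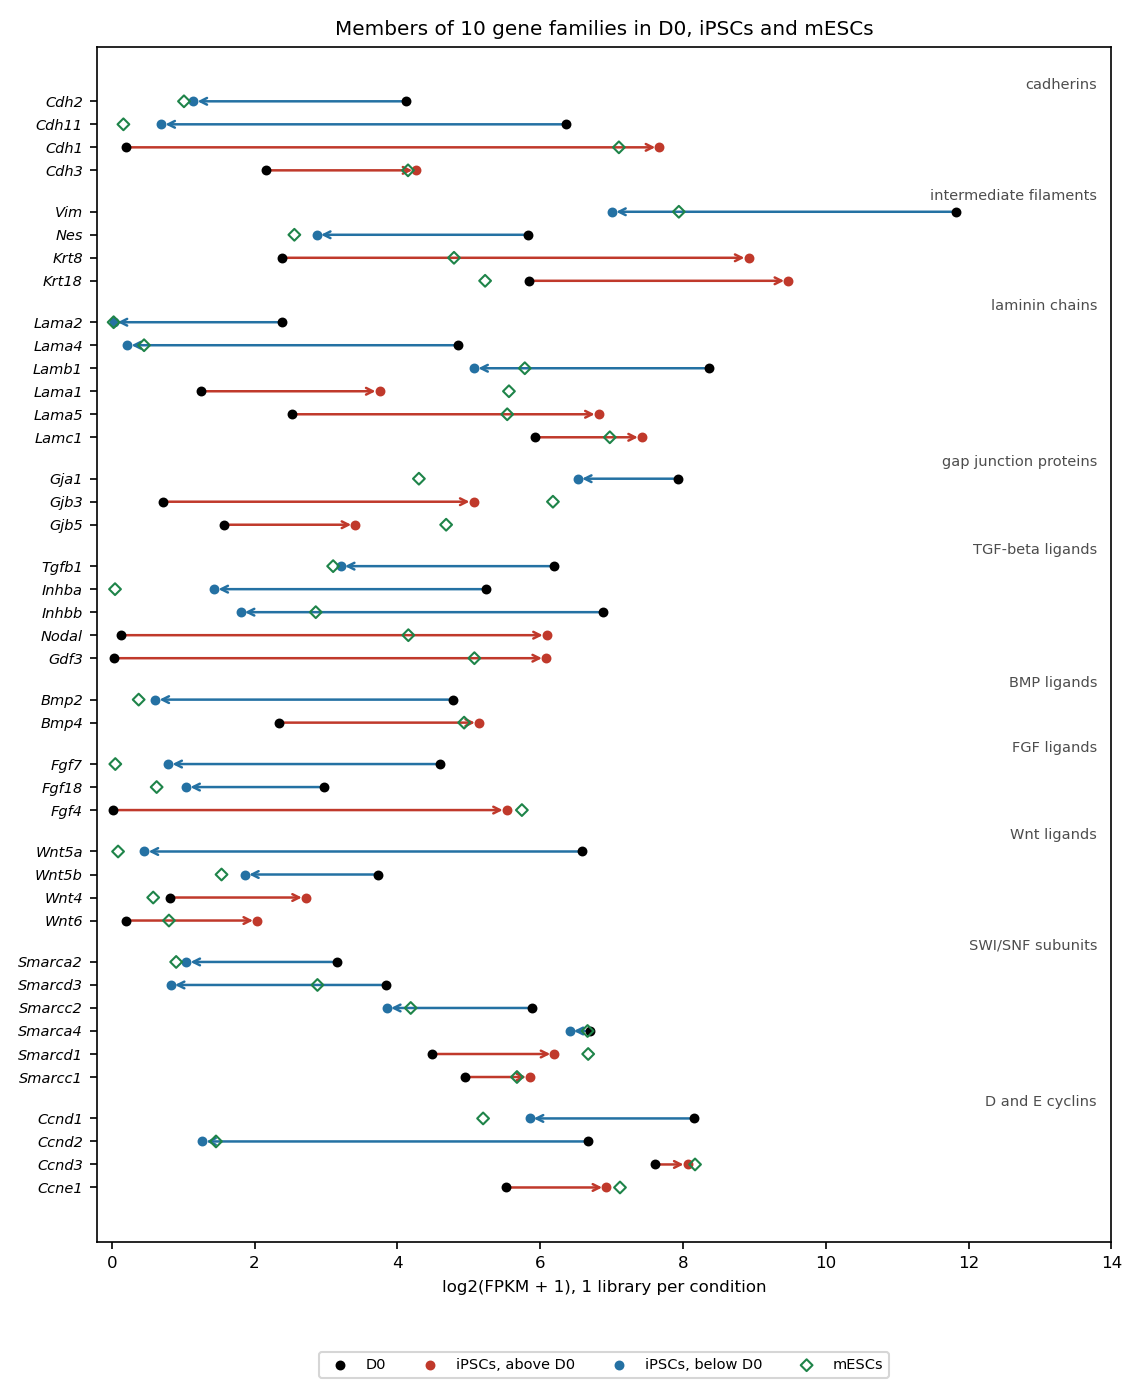
Arrows run from the D0 value (black) to the iPSC value (red when above D0, blue when below) of members of 10 gene families, with mESCs as green diamonds, on a log2(FPKM + 1) axis with 1 library per condition. The members were picked after their values were seen, to show families in which some members were higher and others lower, such as Cdh1 against Cdh11 and Lama5 against Lama4.

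Growth factor genes showed such exchanges within families. In the TGF-beta and activin list, 5 of 31 genes were past 4-fold upwards and 11 past it downwards, beside 6.91% and 10.3% of all kept genes. The higher genes were Tdgf1, Gdf3, Foxh1, Nodal and Acvr2b, which together are ligands, coreceptor, receptor and nuclear partner of Nodal signalling. All 5 were below 1 FPKM in D0 and were kept through their iPSC value, which fixes their direction. Of the Nodal antagonists, Lefty1 and Cer1 were lower (3.41 and 2.39 FPKM in D0, 0.867 and a listing at 0 in iPSCs). Lefty2 was listed at 0 in D0 and at 1.58 FPKM in iPSCs. Tdgf1 (Cripto), the coreceptor, stood at 0.155, 176 and 386 FPKM in D0, iPSCs and mESCs, and Nodal at 0.0944, 67.4 and 16.8 FPKM. The lower genes included the ligands Inhba and Inhbb (36.98 and 117 FPKM in D0, 1.71 and 2.50 FPKM in iPSCs), Tgfb1 and Tgfb3 (72.5 and 25.6 against 8.24 and 2.41 FPKM), the receptor Tgfbr2 (129.7 against 3.26 FPKM), and the latent binding protein Ltbp1 (67.5 against 1.61 FPKM).

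Of 18 BMP genes kept, 1 was at least 4-fold higher and 5 were at least 4-fold lower. The counts were 5 and 7 of 34 FGF and receptor tyrosine kinase genes, and 6 and 5 of 32 Wnt genes. Over all kept genes, 6.91% were higher and 10.3% were lower. The 18 BMP genes all reached 1 FPKM in D0 and 11 did so in iPSCs, so the others could only be lower. Of the FGF and Wnt lists, 26 and 23 genes reached 1 FPKM in D0. The others, such as Fgf4, were kept through their iPSC value, which fixes their direction. Among BMP genes, Bmp4, which acts with LIF in mESC self-renewal, stood at 4.08 and 34.4 FPKM, whereas Bmp2 and the antagonist Grem1 were at 26.4 and 257 FPKM in D0 and 0.527 and 2.43 FPKM in iPSCs. Among FGF genes, Fgf4, the autocrine FGF of pluripotent cells, was at 0.0159 and 45.4 FPKM, and the stromal Fgf7 at 23.2 and 0.731 FPKM. Among Wnt genes, Wnt5a, a ligand of mesenchyme, was at 95.5 and 0.374 FPKM, while Tcf7l1 (Tcf3), the repressor at pluripotency genes, and Porcn, which acylates Wnt ligands, were at 19.8 and 3.08 FPKM in D0 and 97.5 and 73.9 FPKM in iPSCs. Axin2 and Lef1, targets of beta-catenin, stood at 5.04 and 0.587 in D0, 19.8 and 5.66 in iPSCs and 4.88 and 1.79 FPKM in mESCs. Nkd1 and Tcf7 stood at 1.39 and 5.99 in D0 and at 0.693 and 23.1 FPKM in iPSCs, below their 2.66 and 42.8 FPKM in mESCs. The LIF and JAK-STAT list leaned downwards, with a median of -0.86 over 18 kept genes. On the 2-fold limit, 5 of the 18 stood above D0 and 8 below it. Of the 18, 17 reached 1 FPKM in D0 and 15 did so in iPSCs, and the filter fixed the direction of the rest. Lifr, Pim1, Gab1 and Socs2 were higher (1.09, 5.41, 5.02 and 0.821 FPKM in D0, 4.34, 71.2, 96.7 and 14.2 FPKM in iPSCs). Osmr and Il11 were lower (8.65 and 23.3 FPKM in D0, 0.330 and 0.198 FPKM in iPSCs). Il6st, Jak1, Jak2 and Stat3 were lower too (37.9, 39.4, 4.23 and 87.8 FPKM in D0, 18.2, 14.2, 1.81 and 29.7 FPKM in iPSCs).

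Innate immune genes were mostly lower in iPSCs than in fibroblasts. Of 29 interferon-response and antiviral genes kept, 20 were at least 4-fold lower and 1 was at least 4-fold higher, Ifitm1 (4.71 and 42.3 FPKM). Each of the 29 reached 1 FPKM in D0 and 21 did so in iPSCs, so for the others the filter fixed the direction. Isg15, a ubiquitin-like modifier, was listed at 504 in D0, 12.8 in iPSCs and 0.0744 FPKM in mESCs, Irf7 at 83.4, 4.24 and 0.138 FPKM, and Ifit3 at 49.2, 0.159 and 0 FPKM. Some stayed abundant: Ifitm2, Ifitm3 and Bst2, restriction factors against viruses, stood at 469, 341 and 139 FPKM in iPSCs against 1202, 2716 and 582 FPKM in D0. Ddx58 (RIG-I) and Ifih1 (MDA5), sensors of viral RNA, were at 20.5 and 5.58 FPKM in D0 and 6.98 and 0.319 FPKM in iPSCs. Of 14 antigen presentation genes, 5 were at least 4-fold lower. B2m, the light chain of class I molecules, was at 289 and 16.4 FPKM, and the heavy chain H2-K1 at 53.2 and 36.4 FPKM.

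Of 23 cytokine, chemokine and complement genes, 17 were at least 4-fold lower and 0 were 4-fold higher. All 23 reached 1 FPKM in D0 and 9 did so in iPSCs, so for the others the filter fixed the direction. The monocyte chemoattractants Ccl2, Ccl7 and Ccl8 stood at 882, 509 and 202 FPKM in D0 and at 4.13, 2.02 and 0.713 FPKM in iPSCs. The stromal chemokine Cxcl12 was at 77.03 and 0.549 FPKM and the macrophage growth factor Csf1 at 238 and 14.8 FPKM. Mcpt8, a serine protease of basophils, had the largest negative difference in the table, with 1201 FPKM in D0 and a listing at 0 in iPSCs, and between 0.263 and 166 FPKM in the 9 other libraries, with a median of 9.30 FPKM. Of the other 11 markers of mast cells and basophils, Gata2 (20.96 FPKM) was the only one at 1 FPKM or more in D0, and Fcer1a, Ms4a2, Cpa3 and Tpsb2 were listed at 0.

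Metabolic genes gave a mixed picture. Slc2a3 (Glut3), a high-affinity glucose transporter, was listed at 1.87 in D0, 386 in iPSCs and 738 FPKM in mESCs, Slc2a1 (Glut1) at 67.5, 442 and 684 FPKM, and Hk2, the hexokinase of fast-growing cells, at 8.18, 59.6 and 109 FPKM. The glycolytic enzymes were uneven in iPSCs. Aldoc and Pfkp stood at 0.960 and 17.4 FPKM in D0 and 8.58 and 41.7 FPKM in iPSCs, while the more abundant Aldoa and Ldha were listed in D0 at 1259 and 687 FPKM and in iPSCs at 1011 and 475 FPKM. The median of the 26 glycolysis genes was 0.08 in iPSCs and 1.64 in mESCs. In the glycine and folate pathway that Tdh feeds, Gldc and Amt, subunits of the glycine cleavage system, were at 1.45 and 0.588 FPKM in D0 and 179 and 80.5 FPKM in iPSCs, and Shmt1 and Mthfd1 at 15.5 and 36.7 FPKM in D0 and 117 and 169 FPKM in iPSCs. Apoe and Apoc1, apolipoproteins of neighbouring loci, stood at 9.21 and 0.168 FPKM in D0 and 544 and 137 FPKM in iPSCs. Alpl, the tissue-nonspecific alkaline phosphatase that is stained in pluripotent colonies (chromosome 4, 137297648 to 137352299, minus strand), was at 0.502 and 298 FPKM. Folr1, a folate receptor, was at 0.729, 266 and 78.4 FPKM in D0, iPSCs and mESCs.

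Transporters, ribosome assembly and cell death genes added smaller groups. Of 26 transporters and channels, 10 stood 4-fold or more above D0 and 3 stood 4-fold or more below it. Over all kept genes these shares were 6.91% and 10.3%. Of the 26, 16 reached 1 FPKM in D0. The others, with Aqp3, Slc7a3 and Slc39a4 among them, were kept through their iPSC value, which fixes their direction. Aqp3, a channel for water and glycerol, stood at 0.826 and 47.9 FPKM, the arginine carrier Slc7a3 at 0.237 and 27.3 FPKM, and the zinc importer Slc39a4 at 0.884 and 38.4 FPKM, whereas the water channel Aqp1 stood at 10.1 and 0.112 FPKM. Of 35 genes of ribosome biogenesis and RNA binding, 5 were at least 4-fold higher, among them Dkc1 (dyskerin, 6.65 and 37.6 FPKM) and Polr1b, a subunit of RNA polymerase I (9.34 and 44.4 FPKM). The 55 ribosomal protein genes themselves held none past 4-fold, with a median of 0.45. Of 20 apoptosis and survival genes, 5 were at least 4-fold lower and 0 higher. Among the lower ones were genes of death receptor signalling. Casp8 stood at 22.9 and 1.07 FPKM, Tnfrsf1a at 241 and 14.4 FPKM, and the necroptosis genes Ripk3 and Mlkl at 244 and 28.6 FPKM in D0 and 11.1 and 0.514 FPKM in iPSCs. Xaf1 was the other gene past 4-fold, at 17.8 and 1.72 FPKM.

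Lysosomal genes were lower in iPSCs, with 8 of 26 at least 4-fold lower, 0 at least 4-fold higher and a median of -1.27. The cathepsins Ctsl and Ctsb were at 2379 and 714 FPKM in D0 and 113 and 65.7 FPKM in iPSCs, and the membrane protein Lamp1 at 494 and 215 FPKM. In retinoid handling, Crabp1, a cytosolic retinoic acid-binding protein (chromosome 9, 54612555 to 54620917, plus strand), was the third most abundant transcript of D0. It stood at 6195 in D0, 12.7 in iPSCs and 54.2 FPKM in mESCs. Stra6, the receptor for retinol-binding protein, was at 65.8 and 1.18 FPKM, and Dhrs3 at 57.2 and 2.04 FPKM. The calcium-binding S100a4, also called fibroblast-specific protein, stood at 2253 and 10.7 FPKM.

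**Figure D4:**
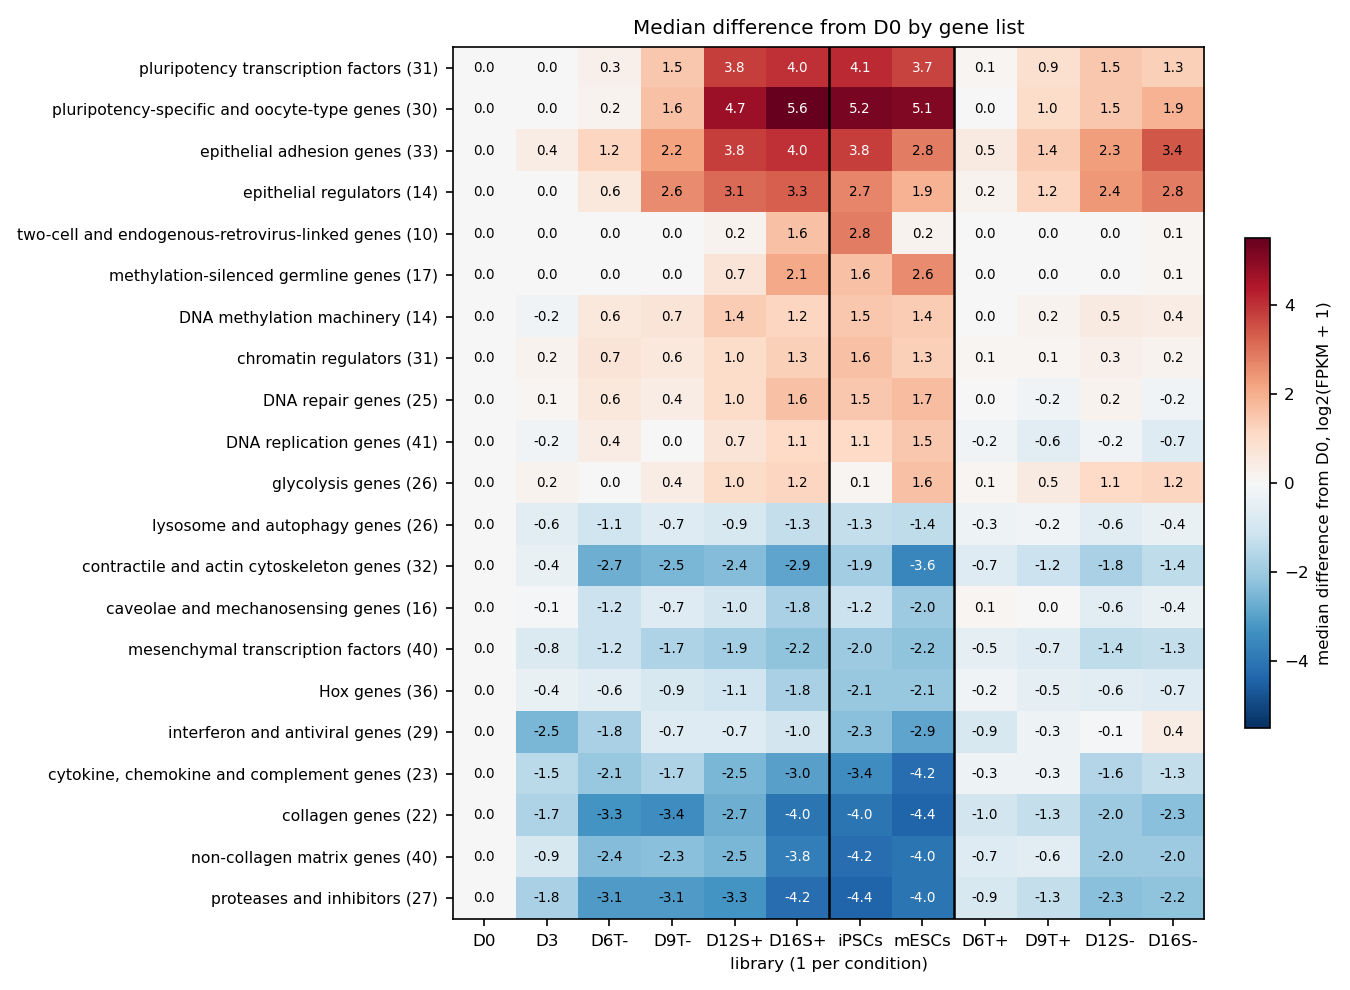
Cells give the median difference from D0 in log2(FPKM + 1) of 21 gene lists (kept genes in brackets) in each of the 12 libraries, 1 per condition (T for cells sorted by Thy1 and S for cells sorted by SSEA-1), with red above D0 and blue below. The successful route ends at D16S+, where the collagen list stands at -4.03 and the pluripotency transcription factors at 4.04, and the unsuccessful route ends at D16S- with -2.27 and 1.33.

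The iPSC library was also set directly against mESCs, since both are pluripotent. mESC values played no part in choosing the 12687 genes, so genes expressed in mESCs alone were not counted. Of the 12687 genes, 175 (1.38%) were at least 4-fold higher in iPSCs than in mESCs and 104 (0.820%) were at least 4-fold lower, and the median of the pluripotency transcription factors was 0.27 on the log2 scale. With the filter set on iPSCs or mESCs, a choice made after seeing the data that kept 12125 genes, the counts were 175 and 135. Contractile genes held 11 of the 175 among 32 kept. Acta2, smooth muscle actin, was listed at 675 in D0, 152 in iPSCs and 10.4 FPKM in mESCs, Tagln (transgelin) at 974, 279.7 and 34.9 FPKM, and Myl9 at 327, 76.2 and 5.28 FPKM. These genes were thus lower in iPSCs than in fibroblasts but well above mESCs. Ctgf and Cyr61, matricellular targets of YAP and SRF, stood at 31.3 and 327 in D0, 92.7 and 196 in iPSCs and 10.9 and 18.3 FPKM in mESCs. Id genes, targets of BMP signalling, were also higher in iPSCs than in mESCs, with Id1 at 84.8, 139.8 and 42.3 FPKM and Id3 at 180.1, 152 and 26.6 FPKM. The lists of collagens, mesenchymal transcription factors and Hox genes held 0 of the 175. At a share of 1.38%, lists of 22, 40 and 36 kept genes would hold few or none in any case. Of their genes, 14, 16 and 6 reached 1 FPKM in iPSCs and 10, 16 and 5 did so in mESCs. A gene below 1 FPKM in both libraries cannot reach 4-fold on this scale. Of 16 caveolae and mechanosensing genes, 5 were at least 4-fold higher in iPSCs than in mESCs, and these were Ctgf, Cyr61, Ankrd1, Prkcdbp and Ehd2. Cav1, the coat protein of caveolae, was not among them and stood at 40.8, 1.19 and 0.112 FPKM in D0, iPSCs and mESCs, and Ehd2 at 200.3, 9.70 and 0.596 FPKM.

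Genes of the 2-cell-stage embryo formed the list furthest above mESCs, with a median of 2.48 and 7 of 10 genes at least 4-fold higher in iPSCs. All 10 reached 1 FPKM in iPSCs and 0 did so in D0, so they were kept through their iPSC value, which favours that direction. Tcstv1 stood at 0.0647 in D0, 37.2 in iPSCs and 1.07 FPKM in mESCs, Zscan4c at 0.0216, 4.81 and 0.146 FPKM, and Gm12794 at 0.0353, 8.14 and 0.103 FPKM. These genes are active in a small share of pluripotent cells at a time and lie in families of near-identical copies, and the authors dropped reads that map to several loci, so their levels are uncertain. The same holds for the deubiquitinase gene Usp17lb (listed at 0, 13.98 and 0.959 FPKM) and for AF067063 (listed at 0, 15.3 and 0.243 FPKM). Some genes known from trophoblast, picked after their values were seen, were also higher in iPSCs and others were not. Cdx2 was listed at 0 in D0, at 2.71 in iPSCs and at 0.156 FPKM in mESCs, Gata3 at 0.597, 10.02 and 0.435 FPKM, and Hand1 at 0.0788, 13.3 and 1.96 FPKM. Eomes, Tfap2c and Phlda2 stood at 1.66, 19.04 and 43.2 FPKM in iPSCs against 4.28, 26.9 and 58.4 FPKM in mESCs.

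Imprinted and glycolytic genes differed in opposite directions. H19, a maternally expressed RNA, was listed at 454 in D0, 448 in iPSCs and 35.9 FPKM in mESCs, and its neighbour Igf2 at 83.5, 192 and 22.3 FPKM. Peg10 stood at 4.56, 185 and 40.96 FPKM, Cdkn1c at 53.9, 72.3 and 10.2 FPKM, and Dio3 at 0.615, 8.16 and 0.570 FPKM. Of 27 kept members of the imprinted and IGF-binding list, 6 were at least 4-fold higher in iPSCs than in mESCs and 0 were 4-fold lower. In the glycolysis list 8 of 26 lay 4-fold or more below mESCs, with a median of -1.46. Aldoa stood at 1259, 1011 and 4275 FPKM, Ldha at 687, 475 and 2409.8 FPKM, Pgk1 at 75.6, 48.8 and 235 FPKM, and the lactate exporter Slc16a3 at 4.74, 18.6 and 182 FPKM. Bnip3 and Ndufa4l2, targets of the hypoxia response, stood at 6.01 and 1.30 in iPSCs against 50.4 and 119 FPKM in mESCs.

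**Figure D5:**
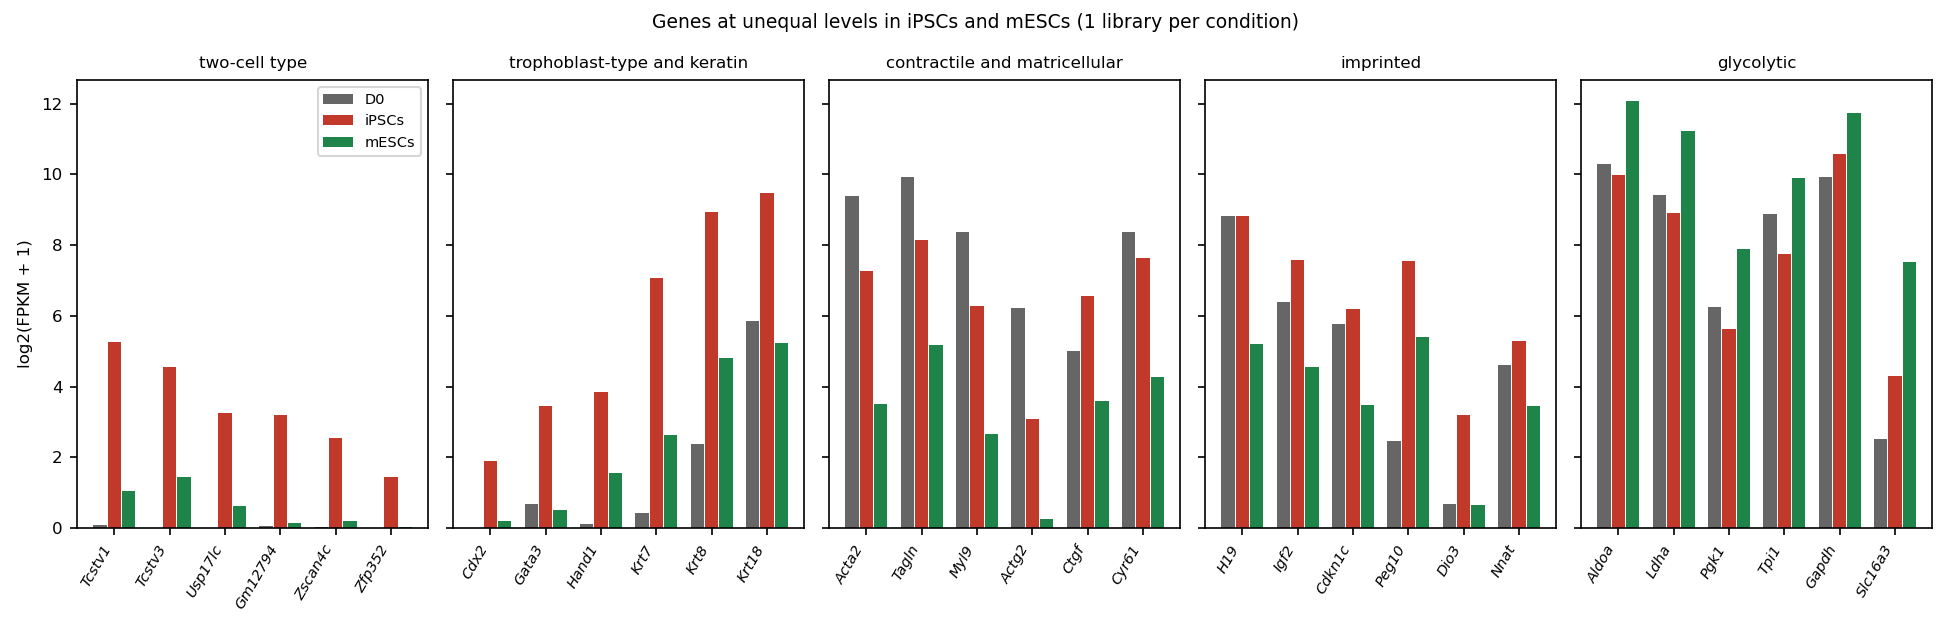
Bars start at 0 and give log2(FPKM + 1) in D0 (grey), iPSCs (red) and mESCs (green), 1 library each, for genes of 5 groups picked after their values were seen because iPSCs and mESCs differed. In the first 4 groups the iPSC bars stand above the mESC bars, as for Krt8 at 483 against 26.7 FPKM, and in the glycolytic group they stand below, as for Ldha at 475 against 2409.8 FPKM.

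A further set of genes differed at least 4-fold from D0 in iPSCs while mESCs lay within 2-fold of D0. It held 97 genes that were higher (0.765% of the 12687) and 40 that were lower (0.315%), and by the rule for naming genes the 5 largest of each are given. The higher ones were Tcstv1, AF067063 and Usp17lb (above), Chit1, a macrophage chitinase (0.0643, 29.4 and 0.375 FPKM in D0, iPSCs and mESCs), and Apoc2, a cofactor of lipoprotein lipase (listed at 0, 23.7 and 0.470 FPKM). The lower ones were Mxra7 (36.3, 3.07 and 18.8 FPKM), the lysosomal Laptm4b (80.9, 8.09 and 63.2 FPKM), Adamts10 (18.6, 1.28 and 9.28 FPKM), Kdelr3, a retrieval receptor of the endoplasmic reticulum (70.04, 7.72 and 44.3 FPKM), and Smarcd3.

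A pair of the largest differences needs care. Mir5133 was listed at 0 in D0, at 617 in iPSCs and at 776 FPKM in mESCs, but its locus (chromosome 9, 61970325 to 61970401) is shorter than a typical fragment, and few fragments then give a large FPKM. 2210409E12Rik, annotated as a pseudogene (chromosome 11, 88833971 to 88834316, plus strand), was at 0.211, 635 and 44.9 FPKM in D0, iPSCs and mESCs, and near-identical copies elsewhere could take or lend reads, so its value is uncertain.

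The promoters of the switched genes held fewer CpG dinucleotides than those of kept genes in general, in either direction. The median ratio of observed to expected CpG in 300-base windows was 0.643 for the 491 genes at least 4-fold higher and 0.621 for the 723 at least 4-fold lower, against 0.779 for the 7568 kept genes. A ratio of 0.6 or more was reached by 55.2%, 52.6% and 75.0% of them. Among the lists, 35 ribosomal protein genes had a median of 0.903, 27 replication genes 0.875, 20 mesenchymal transcription factors 0.798, 14 pluripotency transcription factors 0.659, 16 collagen genes 0.507, 22 interferon and antiviral genes 0.3004 and 7 genes of the 2-cell stage 0.142. Replication genes and mesenchymal transcription factors, whose medians differed from D0 in opposite directions, thus both lay above the general median.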

How the data were processed

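PolyA RNA of 12 libraries (a TruSeq kit, stranded per the labels, not so named in the study's methods), 1 per condition, was sequenced by the authors, and D0, iPSCs and mESCs were used here, with the other 9 libraries as background values. Per the submitters' processing notes and the study's methods, the authors mapped reads with STAR to mm9, dropped reads with several mismatches or several loci, and estimated levels with Cuffdiff. The gene annotation, how Cuffdiff scaled the libraries and the tools' versions are not given in the sources used here. The deposited table gives per gene the FPKM of each library, the lower and upper bounds of its interval (also FPKM), and a status word that the authors' tool set. Of the kept genes, 6 had a status other than OK in D0 or iPSCs.

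Differences were computed as log2(FPKM + 1) with Python 3.11.15, numpy 2.4.6 and pandas 2.3.3, and drawn with matplotlib 3.10.9. Genes with at least 1 FPKM in D0 or iPSCs were kept. With 1 library per condition no test was run, and the scripts were tested on simulated data. Of 1356 different symbols in 46 gene lists and 10 marker lists, 12 were not found in the table. The gene lists were chosen with earlier results of these data known. Genes were named by rule: the 15 largest differences in each direction, the 10 largest in each direction whose deposited intervals lay apart, and the 5 largest in each direction with mESCs within 2-fold of D0. Other genes named within a list were picked after their values were seen, and some listed genes are not reported here. Positions are GENCODE M1 genes on mm9 (1313 of 1344 listed symbols found had a single overlapping gene). Promoter windows came from RefSeq on GRCm38.p6, where 9529 of 12687 kept genes had an entry and 7568 had a single one. Motifs were searched on both strands. Alternatives changed the pseudocount, the filter, the scaling and the fold, and 1 that left out genes with a status other than OK was added after the data were seen.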

Additional observations from a re-analysis of the deposited data

How the results depend on the processing

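The values rest on 1 library per condition and on the authors' FPKM, so agreement between settings says nothing about the spread between cultures. No paired analysis was possible because each group had 1 library and no test was made. The 2 counts, the medians of 56 gene and marker lists and 49 genes named by rule were recomputed under other settings, and a median was taken to move when it changed by more than 0.5 on the log2 scale. With a pseudocount of 0.1 in place of 1, 1597 genes were at least 4-fold higher and 1931 were lower, and the medians became 5.94 for the pluripotency transcription factors, 5.46 for the epithelial adhesion genes, -5.04 for the collagen genes and -3.41 for the mesenchymal transcription factors. A threshold of 2-fold gave 2650 higher and 3064 lower genes. With a filter of 5 FPKM the medians were -5.67 for collagen genes and -2.95 for mesenchymal transcription factors, and the median of the leukocyte markers reversed from -1.01 to 1.56, since fewer of its genes were kept. Over all genes of the table the collagen median was -3.26. Scaling to the same total FPKM shifted the median of all kept genes from 0.01 to 0.22, gave 1102 higher and 1154 lower genes (48.8% higher, against 40.2%) and turned the sign of the medians of the imprinted and IGF-binding genes (-0.02 to 0.22) and of the cholesterol and lipid genes (-0.19 to 0.05). Scaling by the median of ratios gave 876 and 1304. Leaving out short loci and small RNA names gave 873 and 1300. Leaving out genes with a status other than OK, which was chosen after seeing the data, gave 876 and 1303. The 49 named genes kept their direction under each setting that gave a value for them.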

Other observations

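The histone genes and chaperones, which the study examined through H3.3, differed by less than 4-fold for the most part. At 2-fold, 9 were higher and 2 were lower, and the list held 0.207% of the total FPKM in D0 and 0.434% in iPSCs. Of 21 kept, 1 was at least 4-fold higher (Nasp, a chaperone of H3 and H4, at 30.9 FPKM in D0 and 138 FPKM in iPSCs) and 0 were 4-fold lower, with a median of 0.83. H3f3a and H3f3b, the genes for H3.3, stood at 75.6 and 306 FPKM in D0, 114 and 232 FPKM in iPSCs and 121 and 275 FPKM in mESCs. Hira, the chaperone that deposits H3.3 at active genes, was at 19.22, 32.5 and 24.3 FPKM, its partners Ubn1 and Cabin1 at 10.2 and 24.1 FPKM in iPSCs against 12.89 and 21.3 FPKM in D0, and Atrx, which acts with Daxx at heterochromatin, at 1.77, 7.55 and 1.18 FPKM. The linker histone H1f0, known from differentiated cells, was lower, at 79.97, 22.5 and 32.2 FPKM.

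Transcription factors of early lineages were low in iPSCs. Of 32 in the table, 14 were kept and 4 of these were at least 4-fold higher than in D0, beside 6.91% of all kept genes. Only 5 of the 14 reached 1 FPKM in D0, and the others were kept through their iPSC value, which fixes their direction. Hhex was at 0.425, 5.65 and 7.31 FPKM in D0, iPSCs and mESCs. Gata4 and Gata6, factors of primitive endoderm, stood at 1.77 and 2.59 FPKM in iPSCs and 11.1 and 7.82 FPKM in mESCs. Pecam1, an endothelial adhesion molecule that pluripotent cells also carry, stood at 0.296, 27.3 and 61.1 FPKM.

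By chromosome, the share of kept genes at least 4-fold higher in iPSCs ran from 3.45% on chromosome 13 to 11.5% on the X, with 10.2% on chromosome 7 and 9.48% on chromosome 4. The share at least 4-fold lower ran from 6.70% on chromosome 12 to 13.2% on chromosomes 3 and 6. These shares were not tested.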
